A study of Homo sapiens with 7 samples.

Results

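SETD7-only peaks are sites of anti-SETD7 chromatin immunoprecipitation sequencing (ChIP-seq) in vehicle-treated 22Rv1 cells at which no FOXA1 peak of the same series shared even 1 bp. The peaks described here are those on chromosomes 2, 4, 5, 6, 9 to 11, 13 to 22 and X, 18 chromosomes on which SETD7 peaks were sparse. They numbered 5951 of the 7548 SETD7 peaks on these chromosomes and of 25526 SETD7 peaks in all. Peaks at FOXA1 sites, and the SETD7-only peaks of chromosomes 1, 3, 7, 8 and 12, are given beside them where they differ. Absence from the FOXA1 lists and the chromosome set both chose the peaks, so counts on either are descriptions.

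SETD7 is a lysine methyltransferase that places a single methyl group on histone H3 lysine 4 and on many proteins other than histones. It has no DNA-binding domain of the kind that reads a sequence motif. FOXA1 is a forkhead pioneer factor that opens chromatin at enhancers and guides the androgen receptor in luminal prostate cells.

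The series holds 7 libraries, 1 per group, from the established human prostate cancer lines 22Rv1 (labelled CWR22-Rv1) and LNCaP. The single SETD7 library is from vehicle-treated 22Rv1 cells. FOXA1 libraries of 22Rv1 are from SETD7 knockdown cells (hairpin shSETD7), control hairpin cells (shCTL) and vehicle-treated cells. FOXA1 libraries of LNCaP are from cells treated for 4 hours with GSK2879552 plus PFI-2, with GSK2879552 or with DMSO. GSK2879552 inhibits the demethylase LSD1, and PFI-2 inhibits SETD7. Whether the hairpin lines were clones or pools, and whether an input control was used, is not given in the sources used here. Each library is 1 peak list on build hg19, with a whole-number score per peak that is the authors' own value. The depth is unknown. On the 18 chromosomes the FOXA1 lists held 36634 (shSETD7) to 56512 peaks (GSK2879552 plus PFI-2), or 17.7 to 27.4 per Mb. Without replicates no difference was tested, and the 95% intervals cover counting error only. Sites are given by position, since no hg19 gene annotation or sequence was used here.

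Of the SETD7 peaks on the 18 chromosomes, 78.8% had no FOXA1 peak (77.9 to 79.7, Wilson interval), against 81.0% of all SETD7 peaks in the list. The share is the outcome of the rule and describes it. The 1597 peaks left out were mostly sites of the 22Rv1 lists. The shSETD7 list overlapped 15.5% of the SETD7 peaks, the shCTL list 11.6% and the vehicle list 8.61%. In LNCaP the GSK2879552 plus PFI-2 list overlapped 4.60%, the GSK2879552 list 5.45% and the DMSO list 4.11%. Peaks shared with 22Rv1 lists alone numbered 1134, and those shared with LNCaP lists alone 43. The lowest score was 13 in each 22Rv1 FOXA1 list, against 40 (DMSO), 48 (GSK2879552) and 47 (GSK2879552 plus PFI-2) in LNCaP. The lists may thus differ in threshold, and the part of this in any contrast between the lines was not tested. The shSETD7 list was the sole match of 491 peaks, so membership rested on that list more than on any other alone. When the 7548 peaks were moved along the chromosome by 10 kb to 1 Mb, 4.38% to 7.19% met a FOXA1 peak, where 21.2% did so in place.

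SETD7-only peaks were rare, at 2.88 per Mb (2.81 to 2.96, exact Poisson interval), over spans that ran from the first to the last peak of any list. On chromosomes 1, 3, 7, 8 and 12 the density was 16.6 per Mb (16.3 to 16.8), 5.75 times as high. Those chromosomes were picked on density, so the ratio is a description. Vehicle FOXA1 peaks numbered 18.8 per Mb on the 18 chromosomes and LNCaP DMSO FOXA1 peaks 26.2 per Mb.

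Chromosome X stood apart. It held 62 SETD7-only peaks, or 0.400 per Mb (0.307 to 0.513), and the 17 autosomes held 1.98 per Mb (chromosome 19) to 4.88 per Mb (chromosome 21). FOXA1 peaks were also fewer on X, at 8.91 per Mb in vehicle cells and 14.5 per Mb in LNCaP with DMSO, against 14.6 to 22.8 and 19.3 to 30.9 per Mb on the autosomes. For every 100 vehicle FOXA1 peaks there were 4.49 SETD7-only peaks on X, and at least 10.6 on each autosome. Fewer SETD7 peaks on X were also free of FOXA1, 62 of 135 or 45.9% (37.7 to 54.3). Of the SETD7-only peaks on X, 21 lay between 60 and 70 Mb.

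The highest densities were on chromosome 21, at 4.88 per Mb (4.21 to 5.63), and on chromosome 15, at 4.59 per Mb (4.14 to 5.08). These chromosomes differed in other respects. On chromosome 21 the peaks were bunched, with a median spacing of 18.9 kb and a median score of 34, and 61.6% of its SETD7 peaks were free of FOXA1. On chromosome 15 the median spacing was 98.2 kb, the median score was 25 and no score exceeded 107. Chromosome 15 had the highest FOXA1-free share of the 18, at 88.6% (85.2 to 91.2). Over the 18 chromosomes the density of SETD7-only peaks ran with that of LNCaP DMSO FOXA1 peaks (Pearson's r = 0.75, Spearman's rho = 0.64) and of vehicle FOXA1 peaks (r = 0.64, rho = 0.53). Without X the values were 0.53 and 0.57 for LNCaP DMSO, and 0.21 and 0.44 for vehicle, so the relation with vehicle FOXA1 rested largely on X by Pearson's r. The densities share the build and the spans, and chromosomes are not replicates.

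**Figure D1:**
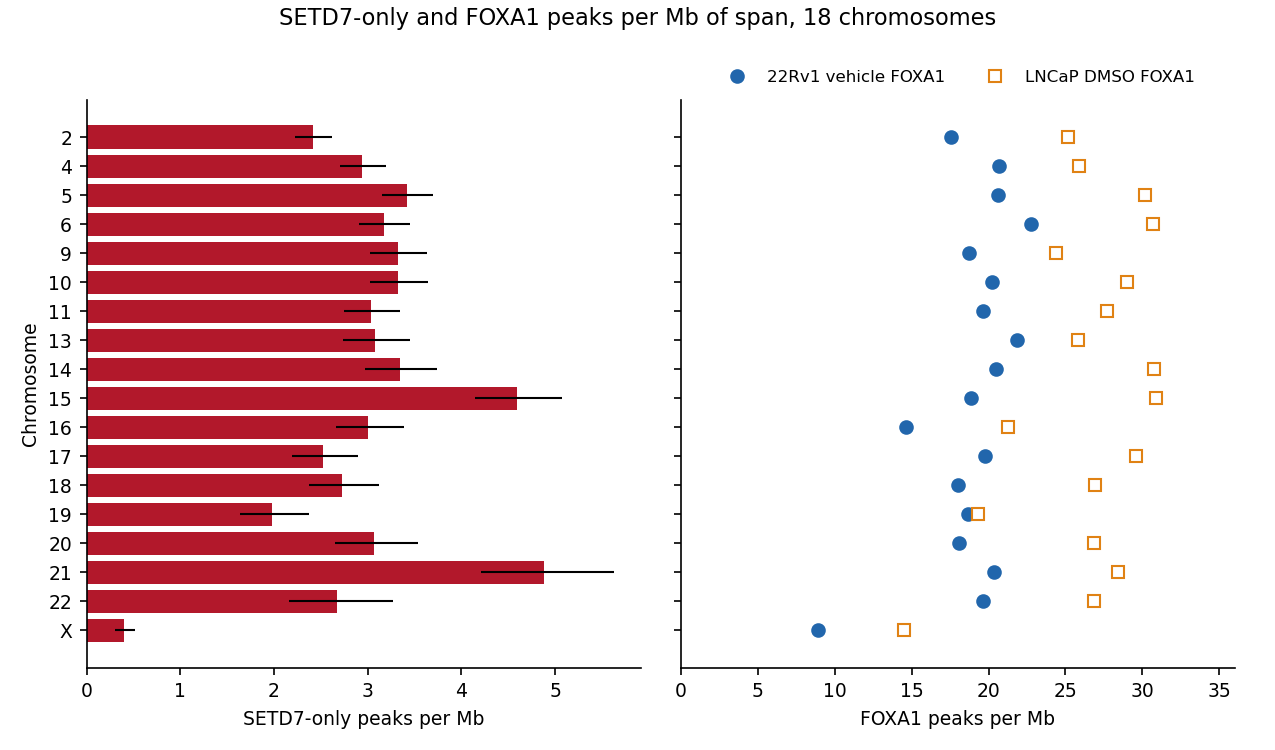
Left, SETD7-only peaks per Mb (bars, exact Poisson 95% intervals for counting error) on each of the 18 chromosomes. Right, FOXA1 peaks per Mb in vehicle 22Rv1 cells (circles) and in LNCaP cells with DMSO (squares). SETD7-only density was 0.400 per Mb on chromosome X and 4.88 per Mb on chromosome 21, and FOXA1 density was also lowest on X in both lists.

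The peaks were bunched along chromosomes. The median spacing from the end of a peak to the start of the next was 150.5 kb (143.0 to 159.9). A constant rate on each chromosome would give 223.1 kb by formula. The rate is taken over the whole span, including centromeres and other stretches with few peaks of any list. How far such stretches add to the gap between measured and formula values was not tested. Spacings under 10 kb made up 10.4% (9.65 to 11.2), or 617 of 5933, against 3.10% by formula. Spacings under 1 kb numbered 89, or 1.50%, against 0.315%. On chromosomes 1, 3, 7, 8 and 12 the median spacing was 27.6 kb against 41.8 kb by formula, and 22.8% of spacings were under 10 kb against 15.3%. Relative to the formula, spacings under 10 kb were 3.35 times as frequent on the 18 chromosomes and 1.49 times on the others, a difference that was not tested. A fixed length is not a like cutoff at unlike densities. On the 18 chromosomes the formula gives 15.3% at 52.7 kb, where 29.6% of spacings were shorter, so at a like formula share the contrast was smaller. In runs with spacings under 10 kb, 4901 peaks stood alone and 1050 lay in runs of at least 2. Of these, 396 lay in 106 runs of 3 or more.

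**Figure D2:**
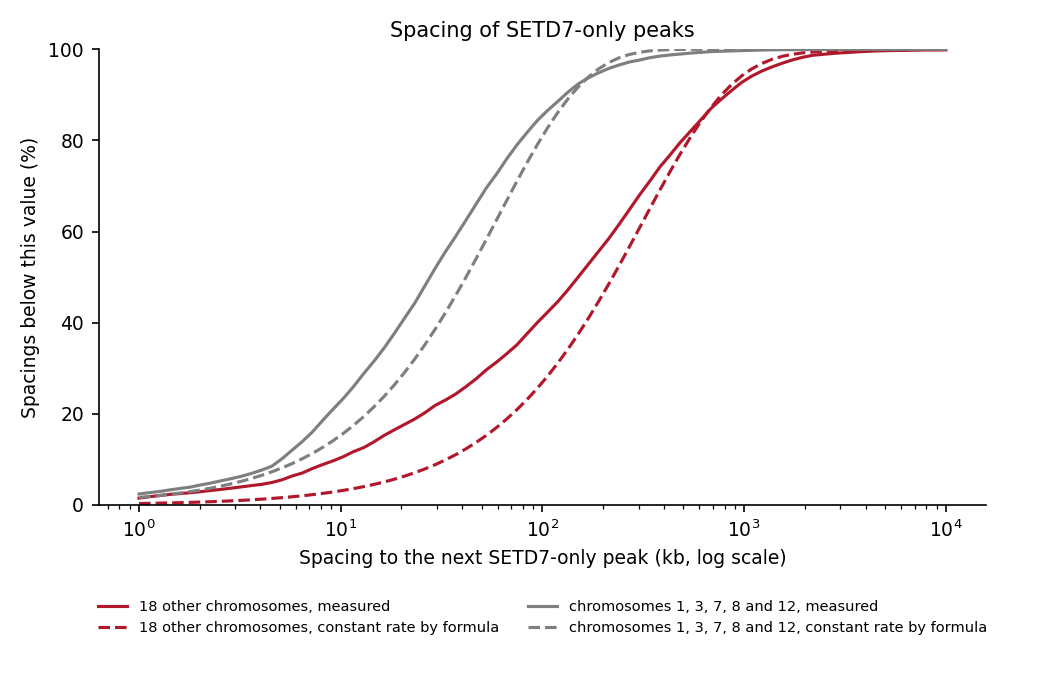
Cumulative percentage of spacings between neighbouring SETD7-only peaks below each length (kb, log scale) on the 18 chromosomes (red) and on chromosomes 1, 3, 7, 8 and 12 (grey). Solid lines are measured and dashed lines a constant rate on each chromosome by formula. The solid lines lie above the dashed lines at short spacings, with medians of 150.5 kb against 223.1 kb and 27.6 kb against 41.8 kb.

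The longest run lay on chromosome 16 from 71152927 to 71202200, with 8 peaks in 49.3 kb and scores of 27 to 84. No peak of the vehicle, shCTL, shSETD7, DMSO or GSK2879552 FOXA1 lists fell inside it, and 1 peak of the combination list did. A second run of 7 peaks lay just before it, from 71086483 to 71112869, with 2 vehicle FOXA1 peaks inside. The other run of 8 was on chromosome 5 from 115777863 to 115803680, in 25.8 kb with scores of 16 to 59. Here the vehicle and shSETD7 lists had no peak, shCTL and GSK2879552 had 1 each, and LNCaP DMSO and the combination had 2 each. Both runs of 8 thus held no vehicle or shSETD7 FOXA1 peak, while the run on chromosome 5 held peaks of all the other lists. Vehicle FOXA1 peaks numbered 14.6 per Mb on chromosome 16 and 20.6 per Mb on chromosome 5, so runs this short would hold few. Every peak of the run of 8 on chromosome 16 scored above the SETD7-only median of 25. A run of 7 on chromosome 11 from 106830296 to 106859814 had scores of 21 to 59 and 1 vehicle FOXA1 peak. It tied in number with the earlier one on chromosome 16 and was longer, at 29.5 kb against 26.4 kb.

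In windows of 1 Mb the counts were uneven. Of 2078 windows, 450 held no SETD7-only peak, or 21.7%, where a constant rate on each chromosome would leave 9.86% empty. The windows and the rate take in gaps of the build, and 52 windows had no vehicle FOXA1 peak either. The median was 2 peaks per window. The 10 densest windows held 338 peaks, or 5.68% of the total. The first was chromosome 21 from 10 to 11 Mb with 46, followed by chromosome 5 from 115 to 116 Mb with 44 and chromosome 21 from 9 to 10 Mb with 43. Chromosome 4 from 190 to 191 Mb held 35 and chromosome 2 from 91 to 92 Mb held 32. Most of these windows were also rich in SETD7 peaks at FOXA1 sites, with 47, 6, 32, 30 and 20 in the same order. Among these 5 the window on chromosome 5 was the exception, with 44 SETD7-only peaks and 6 at FOXA1 sites. It held 53 vehicle FOXA1 peaks and 51 LNCaP DMSO FOXA1 peaks, and the window of chromosome 2 held 18 and 7. Others of the 10 densest windows also held fewer peaks at FOXA1 sites. Chromosome 11 from 106 to 107 Mb held 29 SETD7-only peaks and 8 at FOXA1 sites, and chromosome 15 from 20 to 21 Mb 31 and 13. Of the windows of 10 Mb, chromosome 5 from 110 to 120 Mb held most with 109, then chromosome 15 from 20 to 30 Mb with 86 and chromosome 2 from 90 to 100 Mb with 79. Peaks in the 10 densest windows had a median score of 37 and a median width of 335 bp, against 25 and 304 bp elsewhere. Scores above 60 made up 19.8% of the peaks there (15.9 to 24.4) and 4.13% elsewhere (3.64 to 4.69). Artefact-prone regions were not removed, and their part in these windows was not tested.

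SETD7-only peaks were denser where FOXA1 peaks were denser, at the scale of 1 Mb. The 52 windows with no vehicle FOXA1 peak held 6 SETD7-only peaks in all. Windows with 1 to 5 vehicle FOXA1 peaks held 1.14 on average (99 windows), those with 11 to 15 held 2.26 (340 windows) and those with 21 to 30 held 3.46 (682 windows). Windows with 41 or more held 12.2 (26 windows), or 6.76 over 21 windows without the 10 densest of the whole set. With LNCaP DMSO FOXA1 the rise over the same bins was smaller. Means were 1.41 in windows with 1 to 5 peaks (69 windows), 2.95 with 21 to 30 (658 windows) and 3.93 with 41 or more (220 windows). The last was 3.74 over 219 windows without the 10 densest. The LNCaP DMSO list is longer, so equal bins are not like ranks in both lists. Over all 2078 windows Spearman's rho was 0.47 with the shSETD7 list, 0.35 with shCTL and 0.42 with vehicle. In LNCaP it was 0.35 with GSK2879552 plus PFI-2, 0.36 with GSK2879552 and 0.34 with DMSO. The counts share the build and its unmapped gaps, and windows are not replicates.

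Long stretches had almost no SETD7-only peak. On chromosome 2 the 60 Mb from 120 to 180 Mb held 16, or 0.267 per Mb (0.152 to 0.433). The part before 120 Mb held 398, or 3.32 per Mb (2.999 to 3.66), and the part after 180 Mb 173, or 2.74 per Mb (2.35 to 3.18). The limits were chosen after the counts were seen. The 22Rv1 FOXA1 lists were thinner in the same stretch. Vehicle FOXA1 peaks numbered 10.0 per Mb inside it, against 19.3 before and 21.4 after. The shSETD7 list had 8.90 per Mb inside, against 17.8 and 18.5, and the shCTL list 15.1, against 23.5 and 29.1. The LNCaP lists did not show this fall. LNCaP DMSO FOXA1 peaks numbered 26.6 per Mb inside, against 23.7 before and 26.5 after. The stretch held 16 SETD7-only peaks and 36 SETD7 peaks at FOXA1 sites, while before it there were 398 and 121. DNA copy number was not analysed here.

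Empty stretches between neighbouring SETD7-only peaks differed in how many FOXA1 peaks they held. The longest spacing, 19.2 Mb, was on chromosome 9 from 47236588 to 66456213, which takes in the centromere and the heterochromatin beside it. There all 6 FOXA1 lists were nearly empty, with 14 vehicle and 10 LNCaP DMSO FOXA1 peaks. A stretch of 11.5 Mb across the centromere of chromosome 16 had 17 and 5. On chromosome X, by contrast, 15.2 Mb from 9572698 to 24727184 held 141 vehicle and 289 LNCaP DMSO FOXA1 peaks without a SETD7-only peak. On chromosome 2, 14.3 Mb from 158424894 to 172722591, inside the stretch of 60 Mb above, held 129 and 429, and 12.4 Mb from 39903865 to 52271386 held 139 and 269. At the density of the whole chromosome these 2 stretches would have held 34.5 and 29.9 SETD7-only peaks, and the stretch on X 6.06.

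Among 10 Mb windows with at least 50 vehicle FOXA1 peaks, 16 of 207 held 3 or fewer SETD7-only peaks, against a median of 28. Of these, 6 were on chromosome 2 and 9 on X. The ratio of vehicle 22Rv1 to LNCaP DMSO FOXA1 counts was low in the stretch of chromosome 2, with log2 values of -1.75 to -1.06 and a median of -1.39 over 6 windows. On X it ranged from -1.24 to 0.41 with a median of -0.73 over 15 windows, and elsewhere the median was -0.48 over 188. Over all 209 windows with at least 100 peaks in both lists together, SETD7-only counts ran weakly with this ratio (r = 0.28, rho = 0.15). Without X and the stretch of chromosome 2 there was almost no relation (r = 0.11, rho = -0.018).

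**Figure D3:**
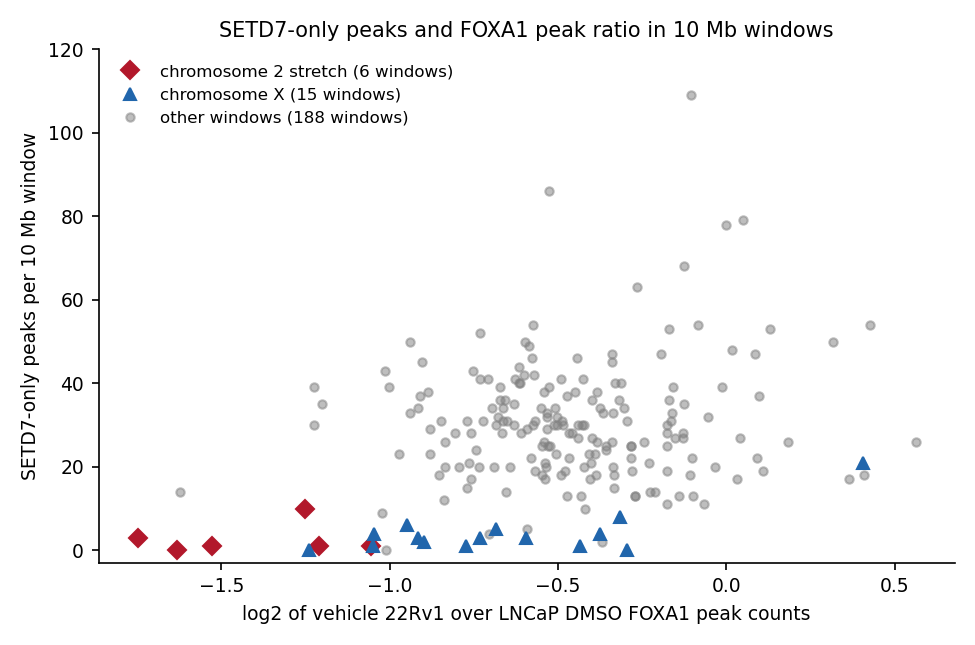
SETD7-only peaks per 10 Mb window (vertical axis) against the log2 ratio of vehicle 22Rv1 to LNCaP DMSO FOXA1 peak counts (horizontal axis), 1 point per window. The 6 windows of the chromosome 2 stretch (diamonds) hold 0 to 10 peaks at the low end of the ratio, and 15 windows of chromosome X (triangles) hold 0 to 21. The other windows (circles) have a median of 30 peaks.

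Most SETD7-only peaks were weak. Their median score was 25, with quartiles of 20 and 32, in a list whose floor was 13 and whose median was 28. SETD7 peaks at FOXA1 sites of the same chromosomes had a median of 74 (66 to 80), with quartiles of 31 and 241. Of the SETD7 peaks scoring 13 to 20, 93.4% were free of FOXA1, of those scoring 31 to 60, 81.9%, of those scoring 61 to 100, 49.2%, and above 200, 8.06% (5.95 to 10.8). The higher a SETD7 peak scored, the more often it was also a FOXA1 peak. On chromosomes 1, 3, 7, 8 and 12 the free share was lower among weak peaks, 86.3% at 13 to 20, and higher among scores of 61 to 100, 71.0%. SETD7-only peaks there had a median score of 28 (28 to 29), with quartiles of 21 and 37. Scores are compared here within the SETD7 list.

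The peaks were also narrow. The median width was 306 bp (303 to 308), with quartiles of 266 and 380 bp and a range of 241 to 1491 bp. SETD7 peaks at FOXA1 sites had a median of 427 bp (414 to 439), and SETD7-only peaks of chromosomes 1, 3, 7, 8 and 12 a median of 318 bp (316 to 320). A wider peak has more chance to touch another, so width enters the rule. The order of the medians was the same within score classes, which match scores only roughly. From score 31 on, the intervals of SETD7-only peaks of both chromosome sets overlapped. Between scores 21 and 30 the medians were 308 bp (304 to 312) for SETD7-only peaks of the 18 chromosomes, 351 bp (329 to 367) at FOXA1 sites and 319 bp (315 to 322) on the 5 chromosomes. Above score 200 they were 357 bp (267 to 397), 575 bp (543 to 623) and 381 bp (249 to 490), with 39, 445 and 15 peaks. This class is open-ended: SETD7-only peaks of the 18 chromosomes ended at 622 and those at FOXA1 sites at 50338. The 3 widest SETD7-only peaks all scored above the median of 25. They were on chromosome 11 from 106660508 to 106661998 (1491 bp, score 31), chromosome 13 from 107144370 to 107145839 (1470 bp, score 37) and chromosome 11 from 76656436 to 76657817 (1382 bp, score 51).

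The highest-scoring SETD7-only peak was on chromosome 13 from 31916237 to 31916502, with a score of 622. The SETD7 list held 210 higher scores on the same 18 chromosomes, which by the rule are all at FOXA1 sites. Its nearest vehicle FOXA1 peak was 39.1 kb away, but shCTL and shSETD7 FOXA1 peaks lay 0.901 and 0.920 kb away. The next was on chromosome 16 from 10571302 to 10571583 (score 578), 31.9 kb from a vehicle FOXA1 peak and 5.25 to 5.35 kb from peaks of the other lists. Both were thus nearer to FOXA1 peaks of other libraries than to those of vehicle cells. The third was on chromosome 18 from 54994855 to 54995251 (score 524), 9.99 kb from a vehicle FOXA1 peak and 1.47 to 1.55 kb from shCTL and LNCaP peaks.

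Others of the 10 highest lay close to FOXA1 peaks of every list. The peak on chromosome 13 from 47226040 to 47226408 (score 507) was 2.64 to 3.40 kb from peaks of all 6 lists. The peak on chromosome 4 from 112259665 to 112260142 (score 407) was 0.815 to 0.982 kb from them. The peak on chromosome 17 from 25371341 to 25371949 (score 438) was 5 bp from a shCTL peak and within 0.126 kb of every list, so it stood at the edge of the rule. In the 22Rv1 lists but not in the LNCaP lists, a FOXA1 peak lay within 1 kb of the peak on chromosome 6 from 143627489 to 143627869 (score 423). The distances were 0.976 to 0.995 kb against at least 5.02 kb. A like pattern at longer range was found on chromosome 10 from 54492061 to 54492318 (score 383), at 3.35 to 3.38 kb against at least 40.99 kb. The peak on chromosome 5 from 59866341 to 59866847 (score 465) was 4.40 to 4.52 kb from peaks of 5 lists and 14.6 kb from LNCaP DMSO. Of the 10, only the peak on chromosome 6 from 50770019 to 50770260 (score 385) was over 10 kb from every list, with shCTL nearest at 13.6 kb. In all, 7 of these 10 had a vehicle FOXA1 peak within 10 kb and 3 within 1 kb.

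The rule turned on single bases for few peaks. SETD7-only peaks within 10 bp of a FOXA1 peak numbered 8, and SETD7 peaks with an overlap of at most 10 bp 13. The nearest was on chromosome 11 from 46468809 to 46469251 (score 30), which abutted a GSK2879552 plus PFI-2 peak with no base between them. After the peak on chromosome 17 came one on chromosome 6 from 86884389 to 86884666 (score 17), 6 bp from a peak of that list. Just outside the rule were chromosome 10 from 83469285 to 83469572 (score 17), chromosome 4 from 54114752 to 54115000 (score 21) and chromosome 4 from 125052079 to 125052495 (score 21), each with 1 shared base in 1 list. Of the SETD7-only peaks, 850 had a FOXA1 peak of some list within 1 kb, or 14.3% (13.4 to 15.2), and 4309 within 10 kb, or 72.4% (71.3 to 73.5). Only 13 were over 100 kb from every list. Moved peaks were not measured against the 6 lists together, so these pooled shares have no reference. Against single lists, moved peaks gave means of 35.4% (vehicle) to 45.3% (GSK2879552 plus PFI-2) within 10 kb. Within 100 kb the means were 94.1% (shSETD7) to 95.9% (GSK2879552 plus PFI-2).

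Distance to vehicle FOXA1 was then compared with the same peaks moved by 10, 20, 50, 100, 200, 500 and 1000 kb in both directions. Moved peaks were held to the rule: those that met a FOXA1 peak of any list, 4.19% to 5.37% per move, were dropped. Of the SETD7-only peaks, 38.7% lay within 10 kb of a vehicle FOXA1 peak (37.5 to 39.98), against 45.5% of all SETD7-only peaks in the list. Moved peaks gave 35.4% on average, with a range of 31.5% to 38.8% over the 14 moves. Within 1 kb the share was 5.14% (4.61 to 5.73), against 5.56% of all SETD7-only peaks and 4.31% for moved peaks (3.65 to 4.90). The median distance was 14.8 kb (14.1 to 15.5), against 14.6 to 18.8 kb for moved peaks. The moves share their peaks and are not independent.

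The difference depended on how far the peaks were moved. After moves of 10, 20 and 50 kb, 36.8%, 37.9% and 37.1% of the peaks lay within 10 kb of vehicle FOXA1, and the interval of the unmoved value reaches down to 37.5%. After moves of 200, 500 and 1000 kb the shares were 34.5%, 33.7% and 32.0%. The share fell with the length of the move from 20 kb on, and the difference was smaller for the shorter moves. For LNCaP DMSO FOXA1 the unmoved share was 47.8% (46.5 to 49.1), and moves of 10 and 1000 kb gave 45.5% and 41.3%. On chromosomes 1, 3, 7, 8 and 12 the shares near vehicle FOXA1 barely moved. There 48.2% of SETD7-only peaks lay within 10 kb of vehicle FOXA1 (47.4 to 49.0), and moved peaks gave 48.4% (46.8 to 49.6). For LNCaP DMSO FOXA1 the share there was 44.9% (44.1 to 45.8), above all 14 moves, which gave 44.1% (42.8 to 44.7). For vehicle FOXA1 the difference between the chromosome sets, 3.37 points against -0.21, was not tested. By single chromosome the vehicle difference was above 0 on 15 of the 18. It ran from -1.56 points on chromosome 14 to 22.3 points on X, which held 62 SETD7-only peaks.

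**Figure D4:**
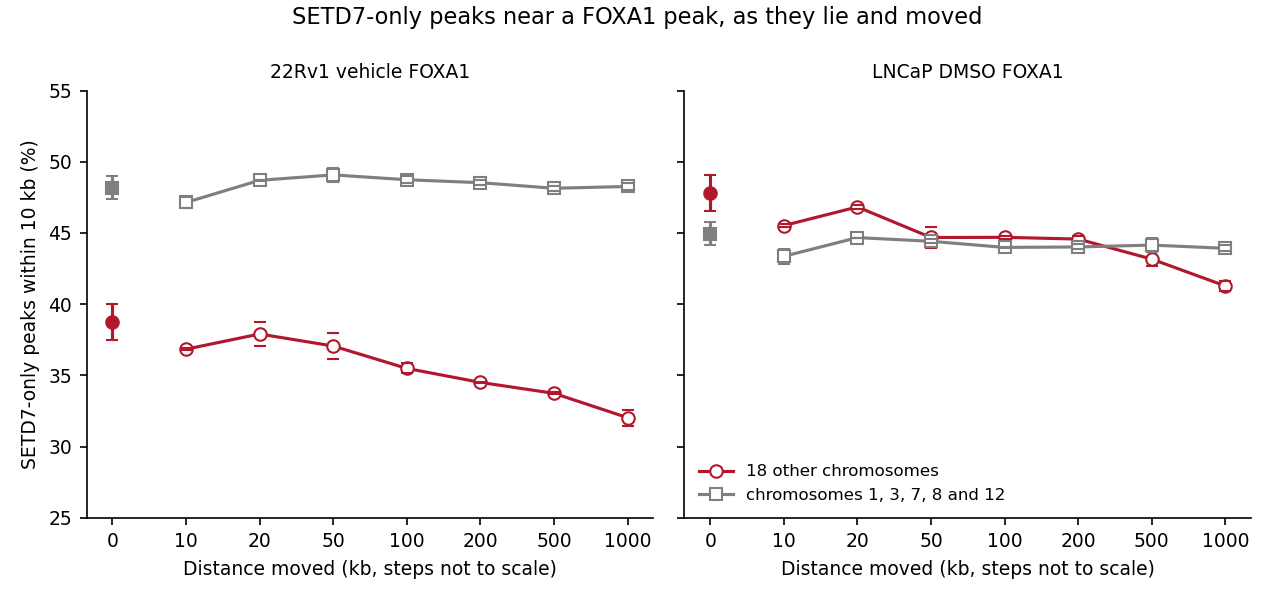
Percentage of SETD7-only peaks within 10 kb of a FOXA1 peak of vehicle 22Rv1 cells (left) and of LNCaP cells with DMSO (right), unmoved (filled, 95% Wilson intervals) and after moves of 10 to 1000 kb (open, mean of both directions, with dashes for each). On the 18 chromosomes (red circles) the vehicle share was 38.7% unmoved and 32.0% after 1000 kb, and on chromosomes 1, 3, 7, 8 and 12 (grey squares) 48.2% and 48.3%. The vertical axis starts at 25%.

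For 4 of the other 5 FOXA1 lists the difference from moved peaks within 10 kb was between 2.85 and 3.89 points, and for GSK2879552 it was 1.24 points. Within 10 kb of a shSETD7 FOXA1 peak lay 39.6% of the SETD7-only peaks and 35.99% of the moved peaks, and for shCTL 46.5% and 42.6%. In LNCaP the shares were 48.2% and 45.3% for GSK2879552 plus PFI-2, 38.5% and 37.3% for GSK2879552, and 47.8% and 44.4% for DMSO. For GSK2879552 the moves reached 39.5%, above the unmoved share, and 11 of 14 moves were lower. Within 1 kb the difference was widest for the shSETD7 list, at 6.18% (5.60 to 6.82) against 4.68% for moved peaks (3.87 to 5.49). For the other 5 lists the difference within 1 kb was between 0.534 and 0.830 points. On chromosomes 1, 3, 7, 8 and 12 the shSETD7 list also had the widest difference within 1 kb. There the share was 7.87% (7.44 to 8.31) against 6.92% moved (6.51 to 7.53), and the other lists fell below their moved peaks. Lists differ in length, so each share is read against its own moved peaks.

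The share near vehicle FOXA1 stood further above that of moved peaks in the higher score classes. Among scores of 13 to 20, 35.4% lay within 10 kb of a vehicle FOXA1 peak (33.1 to 37.9, 1546 peaks), against 33.8% of the same peaks moved. Among scores of 61 to 100 the share was 57.4% (50.1 to 64.3, 183 peaks) against 40.99%. Among scores of 101 to 200 it was 62.3% (51.2 to 72.3, 77 peaks) against 38.6%, and above 200 it was 71.8% (56.2 to 83.5, 39 peaks) against 33.4%. For each of these classes above 60 the unmoved share exceeded that of all 14 moves, which reached 55.7%, 61.8% and 63.2%. Within 1 kb the share above score 200 was 30.8% (18.6 to 46.4), against 2.92% moved. For LNCaP DMSO FOXA1 the differences within 10 kb were 3.17 points for scores of 13 to 20, 2.16 for 21 to 30 and 3.98 for 31 to 60. They were 11.3 points for scores of 61 to 100, 13.4 for 101 to 200 and 8.73 above 200. These too were larger above 60, but did not keep growing with score. Above 200 the share was 51.3% (36.2 to 66.1), inside the range of the moves (29.7 to 63.9). Within 1 kb it was 17.9% (8.98 to 32.7) against 2.68% moved.

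High scores were more frequent in the dense windows, so both were considered. Outside the 10 densest windows, 56.5% of the 232 peaks scoring above 60 lay within 10 kb of vehicle FOXA1 (50.03 to 62.7), against 36.2% moved (27.3 to 53.2). Inside them it was 74.6% of 67 (63.1 to 83.5), against 51.5% moved (26.8 to 78.3). On chromosomes 1, 3, 7, 8 and 12 scores of 61 to 100 gave 54.2% (49.96 to 58.4, 537 peaks) against 52.1% moved (47.1 to 55.8), a difference of 2.07 points against 16.4 points on the 18 chromosomes. Scores of 101 to 200 gave 67.5% (56.8 to 76.6, 83 peaks) against 48.4% moved, and scores above 200 gave 40% (19.8 to 64.3) against 37.5% over 15 peaks. The score classes were chosen after the data were examined, and the difference between classes was not tested. A weak FOXA1 peak below the threshold of its list would not be seen, and how many SETD7-only sites carry one was not tested.

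**Figure D5:**
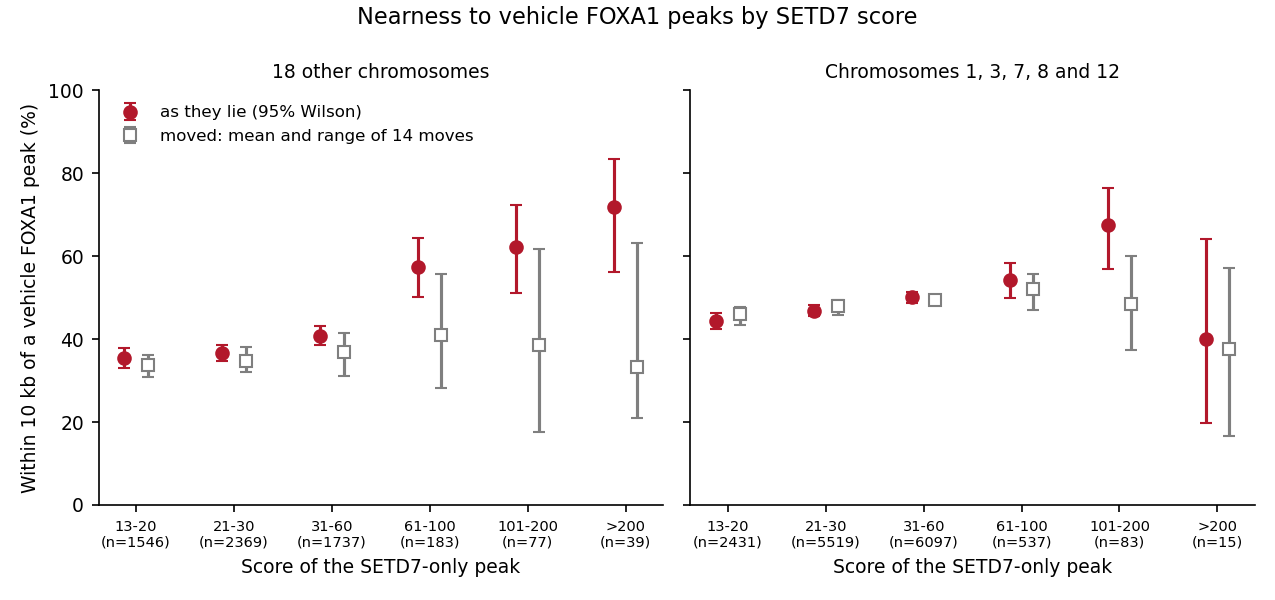
Percentage of SETD7-only peaks within 10 kb of a vehicle FOXA1 peak by score class, unmoved (red circles, 95% Wilson intervals) and moved (grey squares, mean and range of 14 moves), on the 18 chromosomes (left) and on chromosomes 1, 3, 7, 8 and 12 (right). On the left the unmoved share was 35.4% at scores of 13 to 20 and 71.8% above 200, while the moved mean stayed between 33.4% and 40.99%.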

How the data were processed

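ChIP-seq peak lists of 7 libraries, crosslinked with 1% formaldehyde per the labels' protocols, were analysed, with 1 list per library and 1 library per group, grouped by sample title. The genome build is hg19 and the tools named are MACS2 2.1.4, SAMtools 1.9, BWA 0.7.17-r1188 and FastQC 0.11.9, per the submitters' processing notes. No setting or peak threshold is named there. Each deposited score is a whole number per peak, the authors' own value, whose definition is not given. It was used within the SETD7 list to describe and filter peaks. In an alternative for the SETD7-only share, each FOXA1 list was also filtered by its own scores. The other score filters were applied to the SETD7 list alone. All 65461 peak names of the vehicle FOXA1 list contain siNTC, a word absent from its labels, and the list is called vehicle as labelled.

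Peaks were shared when they overlapped by at least 1 bp. Distances were taken between edges, and spans from the first to the last peak of any list on a chromosome. Shares have 95% Wilson intervals, densities exact Poisson intervals and medians intervals from binomial ranks. The expected spacing is that of a Poisson process at the rate of each chromosome. The moves were of 7 fixed distances in both directions, and moved peaks that left the span were dropped. No test between conditions was possible with 1 library per group, and read depth, which is unknown, limits every list. The overlap code gave the same 5951 peaks as bedtools 2.31.1, and the distance code was tested on simulated data. Tables were handled with pandas 2.3.3 and numpy 2.4.6 in Python 3.11.15, intervals came from scipy 1.17.1 and plots from matplotlib 3.10.9.

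Named are the 10 highest-scoring and 3 widest peaks, the 5 densest windows of 1 Mb and 3 of 10 Mb, the 3 longest runs, and the 3 peaks on either side of the rule. A further run that tied in number, the empty stretches and the windows of chromosomes 2 and X were added after their values were seen. The members, the chromosome set and the comparisons were chosen with earlier results of these data known. Alternatives were other overlap rules, lists, moves and filters on score, chromosome X or dense windows.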

Additional observations from a re-analysis of the deposited data

How the results depend on the processing

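Of 43 alternatives over 7 results, 18 stayed inside the 95% interval of the reported value and 25 left it, and 12 were chosen after seeing the data. For the difference from moved peaks, the interval is that of the unmoved share alone. It leaves out the spread over the moves. The difference from moved peaks kept its sign under each of its alternatives, though not on every single chromosome. The other results are positive by construction and could not change sign. The SETD7-only share (78.8%) was 85.0% with reciprocal 50% overlap, 67.6% when a FOXA1 peak within 1 kb counted, 79.8% for the higher-scoring 50% of each list, 91.4% with the vehicle list alone, 85.3% without the shSETD7 list and 93.9% with the LNCaP lists alone. The density (2.88 per Mb) was 1.07 for the higher-scoring 50%, 2.47 with the 1 kb rule, 3.08 without chromosome X and 2.73 without the 10 densest windows. The median width (306 bp) was 314 bp for the higher-scoring 50% and 312 bp with the vehicle list alone. The median spacing (150.5 kb) was 317.5 kb for the higher-scoring 50%, 105.9 kb over all SETD7 peaks and 168.2 kb without the densest windows. The share within 10 kb of vehicle FOXA1 (38.7%) was 43.1% for the higher-scoring 50%, 46.5% with shCTL, 47.8% with LNCaP DMSO and 37.4% without the densest windows. Its difference from moved peaks (3.37 points) was 6.01 for the higher-scoring 50%, 21.2 for scores above 60, 1.91 with moves of 100 kb or less, 5.31 with moves of 200 kb or more, 1.91 with moved peaks at FOXA1 sites kept, and 1.24 with the GSK2879552 list. The median score was 25 under its 3 alternatives (the 1 kb rule, the vehicle list alone and without the densest windows); it was not run on the higher-scoring 50%. Other overlap rules and fewer lists change the set by construction, and for the remaining alternatives the cause was not tested. No paired analysis was possible because each group has 1 library and no result comes from a test. Read depth, unknown here, limits which FOXA1 sites were called and so which peaks count as SETD7-only.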

Other observations

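The scores of the SETD7-only peaks took few values. The scores 21, 17, 25, 31, 37 and 13 were held by 995, 860, 860, 511, 381 and 274 of the 5951 peaks, or 65.2% together (64.0 to 66.4). The lowest score of the list, 13, was held by 4.6%. Scores above 100 numbered 116, or 1.95%, and scores above 200 numbered 39, or 0.655%. The overlap of SETD7 peaks with LNCaP lists was higher on the 18 chromosomes than on chromosomes 1, 3, 7, 8 and 12, at 4.11% (3.68 to 4.58) against 1.86% (1.68 to 2.07) with DMSO. With the shSETD7 list the shares were 15.5% (14.7 to 16.3) and 15.4% (14.8 to 15.9), and with vehicle FOXA1 8.61% (8.0 to 9.27) and 4.36% (4.07 to 4.67). These differences between chromosome sets were not tested.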
